A study of Mus musculus with 6 samples.

Results

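Aquaporins are the channels through which water crosses cell membranes, and this account follows 9 of them in the newborn mouse kidney: Aqp1, Aqp2, Aqp3, Aqp4, Aqp5, Aqp6, Aqp7, Aqp8 and Aqp11. They were chosen by gene symbol among the 19658 genes that held a value, and each symbol matched 1 row. RNA came from whole kidneys at postnatal day 3. One genotype, R26NICD2/+Kspcre (3 samples, called NICD2 below), carries the intracellular domain of the Notch2 receptor at Rosa26, switched on by Cre. Kspcre is driven by the Ksp-cadherin (Cdh16) promoter, which is active in tubule epithelium. The other was wild type (3 samples), and the labels do not say whether those mice carried Kspcre. Nor do they say that each sample is a different animal, so part of the sample-to-sample spread behind the p-values could be technical.

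Each kidney segment uses its own channels. In the proximal tubule and the thin descending limb of Henle's loop, Aqp1 lets filtered water return to the blood. Vasopressin acts on principal cells of the collecting duct through the V2 receptor and cyclic AMP, which sends Aqp2 vesicles to the apical membrane. Water then leaves through Aqp3 and Aqp4 in the basolateral membrane. Aqp6 lies in vesicles of acid-secreting type A intercalated cells, and Aqp5 has been found in type B intercalated cells. Aqp7, an aquaglyceroporin, passes glycerol in the proximal straight tubule. Aqp11 lies in the endoplasmic reticulum of proximal tubule cells, and mice that lack it develop polycystic kidneys.

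Levels are in FPKM, which counts fragments per length of transcript and per size of library and can be compared between genes. Library sizes, inferred from the smallest increments in FPKM, were 16400000 to 17600000 fragments, and 13568 to 13784 genes reached 1 FPKM. A row named for human Notch2 (no label states that human sequence was used) held 75.4, 79.6 and 60.2 FPKM in the NICD2 libraries, against 0, 0.03 and 0.03 FPKM in the wild type libraries. NICD2 replicate 3 alone held 0 FPKM of Uty, Kdm5d, Eif2s3y and Ddx3y, all Y-linked, which sets it apart as another animal than NICD2 replicates 1 and 2. Without it the same 6 channels were called lower, and over all 6 leave-one-out fits the count ranged from 4 to 6. Markers of proximal tubule, principal, intercalated, endothelial and red blood cells were all detected.

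Of the 9 channels, 6 fell in NICD2 kidneys and none rose. Aqp2, Aqp3, Aqp4, Aqp6, Aqp11 and Aqp1 were lower, Aqp5 and Aqp7 were tested and not called, and Aqp8 was under the filter of 1 FPKM in at least 3 libraries. The test was limma on log2(FPKM + 1), two-sided, with Benjamini-Hochberg adjustment over all 13765 genes tested and a threshold of 0.05. By the same rule 3.86% of tested genes were lower, 4.93% were higher and 8.79% were either. At an unadjusted p under 0.05, 1 channel, Aqp5, was higher. That looser rule took in 12.4% of all tested genes as higher, 12.6% as lower and 25.1% as either. The groups did not overlap for 7 of the 8 channels tested, 6 of them lower in NICD2. Such a gap is common with 3 samples against 3. It was found for 30.5% of all genes tested, and for 15.5% of all genes with NICD2 the lower group. Aqp6 passed the filter through its wild type libraries alone. The 3 principal cell channels and Aqp6 kept their calls in all 6 leave-one-out fits. Aqp1 lost its call in 5 of them and Aqp11 in 2. Fold changes below are differences of log2(FPKM + 1), NICD2 minus wild type, with their standard error (SE), a scale that understates the change of low genes. In whole kidney, fewer cells of a type and less RNA per cell cannot be told apart.

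**Figure D1:**
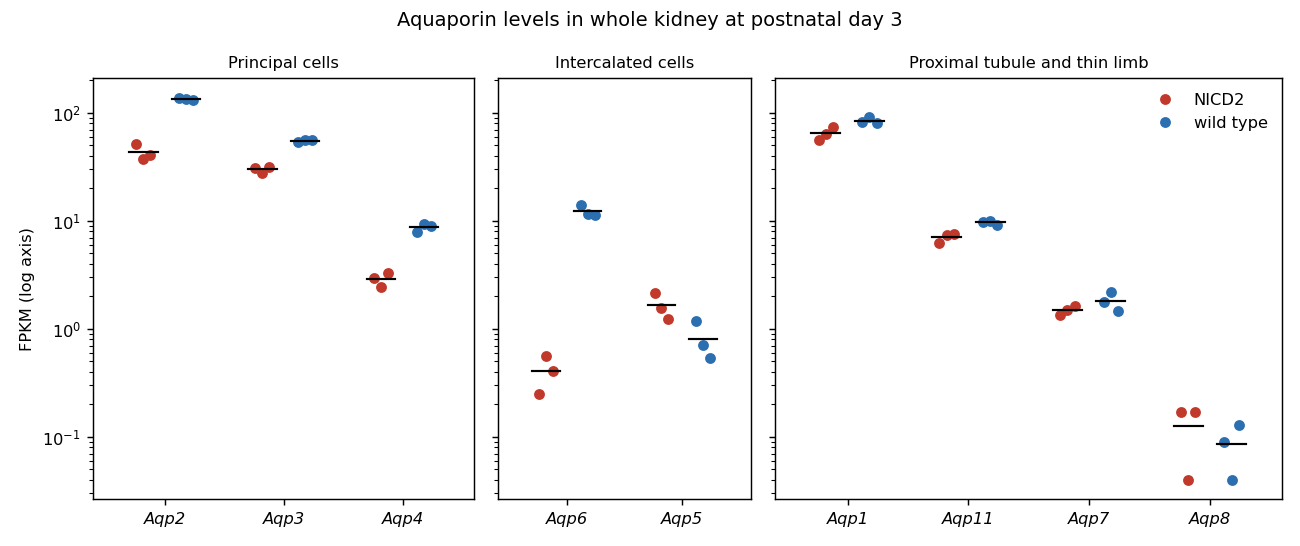
FPKM of the 9 channels in each library on a log axis, grouped by the segment each channel marks, with NICD2 libraries in red and wild type libraries in blue and a black line at the group mean (n = 3 each). Aqp6 lies between 0.25 and 0.56 FPKM in NICD2 and between 11.3 and 13.9 FPKM in wild type, while the groups overlap for Aqp7 and Aqp8.

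Aqp2, the vasopressin-regulated channel of principal cells, was the most abundant channel in wild type kidneys. It stood at 51.6, 37.4 and 40.4 FPKM in the NICD2 libraries, against 139, 136 and 131 FPKM in the wild type libraries. Every NICD2 library lay below every wild type library. The NICD2 mean was 43.1 ± 7.46 FPKM and the wild type mean 135 ± 4.18 FPKM (SD, n = 3 each), which puts NICD2 at 31.9% of wild type. Limma gave a log2 fold change of -1.64 ± 0.11 (SE) and adjusted p = 5.81e-05. The gene (ID 11827) lies on the plus strand of chromosome 15, from 99579056 to 99584545 on GRCm38, with 1 annotated transcript. Its promoter is shown because Aqp2 leads the fall in principal cells and sits beside Aqp5 and Aqp6. It is the RefSeq window of chr15:99578806-99579105 on GRCm38, plus strand, which starts 250 bases before the gene.
Aqp2: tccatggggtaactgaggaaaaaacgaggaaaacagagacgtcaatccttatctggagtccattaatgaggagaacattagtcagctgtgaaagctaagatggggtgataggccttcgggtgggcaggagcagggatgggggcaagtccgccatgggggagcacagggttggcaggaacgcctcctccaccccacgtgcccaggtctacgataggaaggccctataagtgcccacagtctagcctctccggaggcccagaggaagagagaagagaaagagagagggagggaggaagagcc
Capitals in this and the windows printed below mark matches, on either strand, to TGGGAA (the core bound by RBPJ, the DNA-binding partner of Notch), TGACGTCA (the cyclic AMP response element) or TGTTTAC (a forkhead core). TGGGAA contains GGAA, the core of ETS factor sites. The Aqp2 window holds no exact match to any of them, which says only that these letters are not in this window. Near matches and parts of a motif were not searched. Among 32851 RefSeq windows of the same 300 bases, 25.6% hold TGGGAA, 1.79% hold TGACGTCA and 3.65% hold TGTTTAC.

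Aqp3, the basolateral channel that passes water and glycerol (ID 11828, minus strand of chromosome 4, from 41092724 to 41098183), fell as well. It stood at 30.8, 27.9 and 31.8 FPKM in the NICD2 libraries, against 54.2, 56.3 and 55.7 FPKM in the wild type libraries, with a wide gap between the groups. The NICD2 level was 54.4% of wild type (log2 fold change -0.86 ± 0.07, limma adjusted p = 1.48e-04). Aqp4, the other basolateral channel, is best known from brain astrocytes. It stood at 2.98, 2.42 and 3.29 FPKM in the NICD2 libraries, against 7.86, 9.29 and 9.07 FPKM in the wild type libraries. Here too the groups did not overlap, and the NICD2 level was 33.1% of wild type (log2 fold change -1.32 ± 0.11, limma adjusted p = 1.82e-04).

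Among the 3 channels of the principal cell, the ratios that involve Aqp3 did not overlap between the groups. The ratio of Aqp4 to Aqp2 did overlap. The log2 ratio of Aqp3 to Aqp2, on FPKM + 1, was -0.73, -0.41 and -0.34 in the NICD2 libraries, against -1.34, -1.26 and -1.22 in the wild type libraries. Aqp3 was thus closer to Aqp2 in all NICD2 libraries than in any wild type library, by 0.78 on the log2 scale (exact permutation test over samples, two-sided, p = 0.1). The log2 ratio of Aqp4 to Aqp3 moved the other way, with a difference of -0.47 and no overlap between the groups (exact permutation p = 0.1). The ratio of Aqp4 to Aqp2 overlapped between the groups, with a difference of 0.31 (exact permutation p = 0.2). That difference was 0.20 without NICD2 replicate 3 and 0.09 with a pseudocount of 0.1. With 3 samples against 3, 0.1 is the smallest p this test can give. Adjusted over the 7 ratios computed, it becomes 0.14, so none of these ratios passes 0.05.

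Other principal cell genes changed in both directions. Of 14 tested markers that are no aquaporins, 4 rose and 2 fell, and their median log2 fold change was -0.21, beside -0.01 over all genes tested. At an unadjusted p under 0.05, 4 were higher and 9 were lower, where 12.4% and 12.6% of all genes were. Ptges, which makes prostaglandin E2, rose to 35.4 ± 4.04 FPKM in NICD2, against 9.98 ± 0.803 FPKM in wild type (log2 fold change 1.73, limma adjusted p = 2.17e-05). Kcne1, a potassium channel subunit, rose to 9.33 ± 1.07 FPKM in NICD2, against 2.92 ± 0.424 FPKM in wild type (limma adjusted p = 1.69e-04). The sodium channel subunit Scnn1g and the potassium channel Kcnj1 rose as well, while the steroid enzyme Hsd11b2 fell to 32.2 ± 1.97 FPKM in NICD2, against 59.7 ± 2.69 FPKM in wild type. The ion pump regulator Fxyd4 was the other marker that fell. Scnn1a and Scnn1b, subunits of the same sodium channel as Scnn1g, stood at 77.3% and 83.5% of wild type. Neither was called (limma adjusted p = 0.152 and 0.0829). Scnn1a, Scnn1b, Scnn1g, Kcnj1 and Fxyd4 were chosen after their values were seen. The summed level of the marker list was 523 to 602 FPKM in NICD2 and 610 to 638 FPKM in wild type. Cdh16, also chosen after its values were seen, had a mean of 236 FPKM in NICD2 and 274 FPKM in wild type within it. Its promoter is active in tubule epithelium, so the list is not of principal cells alone. Relative to the mean log2 level of these markers, Aqp2 was lower in NICD2 by 1.69, Aqp4 by 1.38 and Aqp3 by 0.91 on the log2 scale. The groups did not overlap in any of the 3 (exact permutation p = 0.1 each, 0.143 adjusted over 10 such differences).

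Most genes that control Aqp2 were not called, and those called went in both directions. The list holds the vasopressin receptor, cyclic AMP enzymes, proteins of vesicle traffic and turnover, and transcription factors. Of its 35 tested members, 4 rose and 3 fell, with a median of -0.03, and 8 were higher and 9 lower at an unadjusted p under 0.05. Over all genes tested, 4.93% rose and 3.86% fell, with a median of -0.01. At that unadjusted p, 12.4% of all genes were higher and 12.6% lower. Adcy6, the adenylyl cyclase that makes cyclic AMP in principal cells, stood at 24.9, 25.6 and 24.9 FPKM in the NICD2 libraries, against 34.4, 36.9 and 34.8 FPKM in the wild type libraries. It fell in each NICD2 library below the wild type range (log2 fold change -0.48 ± 0.06, limma adjusted p = 0.00171). Nfat5, the transcription factor that responds to high salt outside the cell, fell to 36.7 ± 3.06 FPKM in NICD2, against 49.8 ± 3.1 FPKM in wild type (limma adjusted p = 0.0116). Gata2, a transcription factor, rose to 19.4 ± 2.12 FPKM in NICD2, against 13.9 ± 0.406 FPKM in wild type (limma adjusted p = 0.0122). The epithelial transcription factors Elf5, Elf3 and Grhl2 also rose, and the vesicle protein Vamp2 fell. Those names were chosen after their values were seen, and Elf3, Grhl2 and Vamp2 each lost the call in 5 of 6 leave-one-out fits (adjusted p up to 0.142, 0.144 and 0.13). Elf5 lost it in 2 of them, once either wild type replicate 2 or 3 was left out, with adjusted p as high as 0.073. The count of members that rose was 1 without wild type replicate 2 or 3, and 2 with no filter or once NICD2 replicate 1 or wild type replicate 1 was left out. Avpr2, the V2 vasopressin receptor, also chosen after its values were seen, was at 4.86 ± 0.653 FPKM in NICD2 and 6.45 ± 1.35 FPKM in wild type and was not called (limma adjusted p = 0.183).

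**Figure D2:**
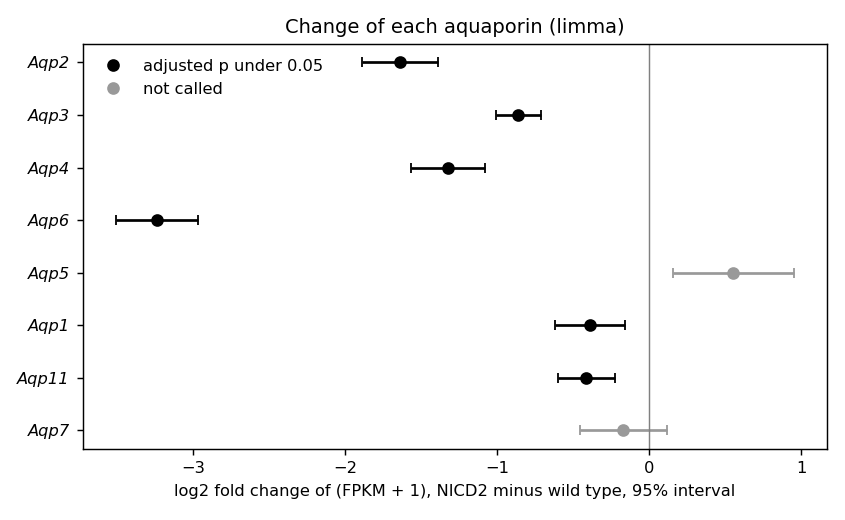
Log2 fold change of FPKM + 1 of the 8 tested channels from limma, NICD2 minus wild type, with 95% intervals and black points where the adjusted p was under 0.05. Aqp6 stands at -3.24 and Aqp2 at -1.64, and the interval of Aqp5 lies above 0 although it was not called.

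Aqp6 fell the most of the channels tested. On the log2(FPKM + 1) scale, only 1 of the 13765 genes tested had a lower fold change. As a percent of wild type, the intercalated cell marker Hmx2, named after its values were seen, stood lower than Aqp6, at 2.86%. This intracellular channel of type A intercalated cells stood at 0.25, 0.56 and 0.41 FPKM in the NICD2 libraries, against 13.9, 11.5 and 11.3 FPKM in the wild type libraries. The NICD2 level was 3.32% of wild type, a 30.1-fold difference between means of 0.407 ± 0.155 and 12.2 ± 1.45 FPKM. Limma gave a log2 fold change of -3.24 ± 0.12 and adjusted p = 4.14e-06. Because NICD2 levels lie under the pseudocount of 1, the fold change was -4.65 with a pseudocount of 0.1. If all reads are taken to fall on the longest of its 3 transcripts, the NICD2 values rest on 13 to 29 fragments and the wild type values on 596 to 683. The gene (ID 11831) lies on the plus strand of chromosome 15, from 99600689 to 99605477. Its promoter is shown as that of the channel with the largest fall. The RefSeq window, chr15:99600950-99601249 on GRCm38, plus strand, starts 261 bases inside the span that the deposited table gives, since RefSeq places this start site further along.
Aqp6: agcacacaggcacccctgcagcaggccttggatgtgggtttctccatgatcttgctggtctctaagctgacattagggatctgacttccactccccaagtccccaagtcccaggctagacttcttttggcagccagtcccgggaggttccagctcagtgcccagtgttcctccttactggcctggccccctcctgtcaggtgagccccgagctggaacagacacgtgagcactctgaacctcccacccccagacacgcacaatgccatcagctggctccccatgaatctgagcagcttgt
This window holds no match to the 3 motifs either.

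Aqp5, known from salivary gland and lung and placed in type B intercalated cells, did not follow Aqp6. It stood at 2.16, 1.56 and 1.24 FPKM in the NICD2 libraries, against 1.18, 0.71 and 0.54 FPKM in the wild type libraries. Each NICD2 value was above each wild type value, by a small margin between the nearest libraries. The log2 fold change was 0.55 ± 0.17 with limma adjusted p = 0.0896, so it was not called, and it was 0.97 with a pseudocount of 0.1. The gene (ID 11830) runs from 99591028 to 99594829 on the plus strand of chromosome 15. It is a low gene, and its values rest on about 53, 38 and 31 fragments in the NICD2 libraries and about 27, 17 and 13 in the wild type libraries. Its promoter is shown as that of the gene that lies between Aqp2 and Aqp6 and did not fall with them. The RefSeq window is chr15:99590778-99591077 on GRCm38, plus strand, with 79.7% G and C bases, against 56% for Aqp2 and 58.7% for Aqp6.
Aqp5: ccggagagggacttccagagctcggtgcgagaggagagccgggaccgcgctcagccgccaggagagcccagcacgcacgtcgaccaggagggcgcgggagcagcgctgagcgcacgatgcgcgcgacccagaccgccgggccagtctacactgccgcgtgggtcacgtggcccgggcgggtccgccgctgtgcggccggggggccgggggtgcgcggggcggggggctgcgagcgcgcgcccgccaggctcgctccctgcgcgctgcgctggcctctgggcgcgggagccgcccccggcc
It also holds none of the 3 motifs.

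Most other marker genes of intercalated cells fell with Aqp6. Of 18 tested markers, 16 fell and none rose with limma, where 17 were lower and none higher at an unadjusted p under 0.05, beside 12.6% lower over all genes. Their median log2 fold change was -1.46, beside -0.01 over all genes tested. The 2 not called were Slc4a1 and Car2, the latter named after its values were seen. Slc4a1 stood at 46.4% of wild type and Car2 at 96.5% (limma adjusted p = 0.0547 and 0.75). Some of the markers that fell, among them Slc26a4, passed the filter through their wild type libraries alone. The anion exchanger Slc4a9 fell to 3.27 ± 0.516 FPKM in NICD2, against 32.7 ± 0.527 FPKM in wild type (limma adjusted p = 2.24e-06). The proton pump subunit Atp6v0d2 fell to 2.05 ± 0.248 FPKM in NICD2, against 16.5 ± 1.59 FPKM in wild type, and Atp6v1g3, another subunit, to 1.66 ± 0.315 FPKM in NICD2, against 13.6 ± 1.5 FPKM in wild type. The list summed to 199.6 to 214 FPKM in NICD2 and 412 to 422 FPKM in wild type, and its part in the fall of Aqp6 was not tested. Set against the mean log2 level of these markers, Aqp6 was lower in NICD2 by 1.68 and Aqp5 was higher by 2.11, with no overlap between the groups in either (exact permutation p = 0.1 each, 0.143 adjusted). With a pseudocount of 0.1 the difference for Aqp6 was -2.62. The log2 ratio of Aqp6 to Aqp2 was -5.39, -4.62 and -4.88 in the NICD2 libraries, against -3.23, -3.46 and -3.42 in the wild type libraries. Aqp6 thus lay further below Aqp2 in every NICD2 library (difference -1.60, exact permutation p = 0.1), and the difference was -2.99 with a pseudocount of 0.1.

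**Figure D3:**
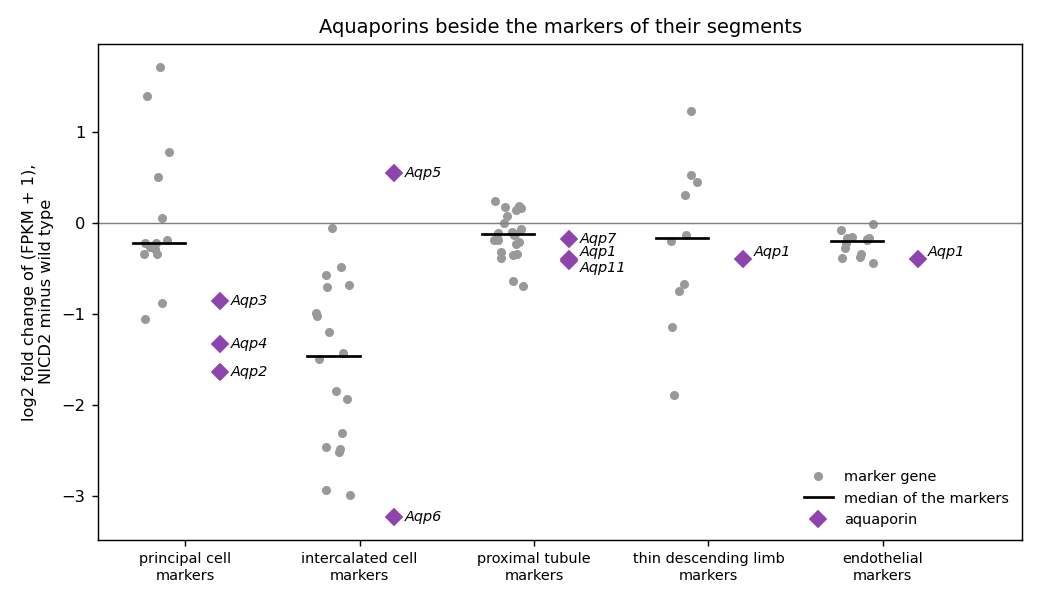
Log2 fold changes of FPKM + 1, NICD2 minus wild type, of the tested markers of 5 cell types (grey points, black line at their median). The purple diamonds are aquaporins that have been placed in the same cells. On this scale Aqp6 lies below all 18 intercalated markers and Aqp5 above all of them. Aqp2, Aqp3 and Aqp4 lie below the principal cell median of -0.21.

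The genes whose pattern over the 6 libraries was most like a channel's were found by the root mean square difference of log2(FPKM + 1), each gene centred on its own mean, among 12087 named genes with a mean of at least 2 FPKM. For Aqp2 they were Aldh1a3, an enzyme of retinoic acid synthesis, Slc14a2, the collecting duct and thin limb urea transporter, and Apela, a peptide hormone, at distances of 0.164, 0.166 and 0.192. Slc14a2 stood at 7.77, 6.87 and 7.6 FPKM in the NICD2 libraries, against 30.5, 32 and 27.9 FPKM in the wild type libraries. For Aqp6 they were Slc4a9, the anion exchanger Slc26a4 (pendrin), and Upk1b, a uroplakin of urothelium, at 0.161, 0.257 and 0.285. Pendrin stood at 0.14, 0.35 and 0.66 FPKM in the NICD2 libraries, against 8.7, 9.12 and 10.7 FPKM in the wild type libraries. It marks type B cells, whereas Aqp6 marks type A cells, and both were under 1 FPKM in every NICD2 library. Aqp5, though placed in type B cells, did not go with pendrin. Its NICD2 level was 204% of wild type, against 4.03% for pendrin. Which cells made the Aqp5 RNA measured here was not tested.

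Aqp1, the constitutive water channel of the proximal tubule and descending thin limb, changed little by comparison. It stood at 56.6, 63.2 and 74.6 FPKM in the NICD2 libraries, against 83.2, 90.9 and 80.01 FPKM in the wild type libraries. The nearest libraries of the groups were NICD2 replicate 3 and wild type replicate 3, and the groups did not overlap. The NICD2 level was 76.5% of wild type (log2 fold change -0.39 ± 0.10, limma adjusted p = 0.0497). That call was lost in 5 of 6 leave-one-out fits, whose adjusted p ran over 0.0147 to 0.164, and it held without NICD2 replicate 3, the library without Y-linked transcripts. It was also lost with a pseudocount of 0.1, with no filter and under either other scaling (adjusted p = 0.0519, 0.0959, 0.052 and 0.0535). The gene (ID 11826) lies on the plus strand of chromosome 6, from 55336299 to 55348555. Its promoter is shown because it holds a match to TGGGAA, read on the other strand as TTCCCA. The window is chr6:55336049-55336348 on GRCm38, plus strand.
Aqp1: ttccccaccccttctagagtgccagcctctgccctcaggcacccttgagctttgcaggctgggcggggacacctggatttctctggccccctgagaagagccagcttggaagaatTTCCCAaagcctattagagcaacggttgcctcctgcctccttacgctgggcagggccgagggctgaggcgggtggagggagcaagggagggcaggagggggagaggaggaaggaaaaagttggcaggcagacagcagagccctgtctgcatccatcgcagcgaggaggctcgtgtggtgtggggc
Among the 8 channels with a RefSeq window printed or searched, 3 held TGGGAA, namely Aqp1, Aqp8 and Aqp11, and none held the other motifs. Aqp2, Aqp3, Aqp5, Aqp6 and Aqp7 held no match. Aqp4, which also fell, was left out of the search, so nothing is said of its promoter. A share of 25.6% of all windows holds these letters, and a match is a description, not a binding site.

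Aqp11, the channel of the endoplasmic reticulum, stood at 6.3, 7.34 and 7.5 FPKM in the NICD2 libraries, against 9.87, 10.01 and 9.22 FPKM in the wild type libraries. The NICD2 level was 72.6% of wild type, and the groups did not overlap (log2 fold change -0.41 ± 0.08, limma adjusted p = 0.0175). Leaving out wild type replicate 2 or NICD2 replicate 1 ended the call, at adjusted p = 0.0774 and 0.0532. Aqp11 (ID 66333) runs from 97726379 to 97738247 on the minus strand of chromosome 7. The log2 ratio of Aqp11 to Aqp1 overlapped between the groups, with a difference of -0.02 (exact permutation p = 0.9) that turned to 0.04 without NICD2 replicate 3. Aqp7, the glycerol channel, stood at 1.34, 1.49 and 1.64 FPKM in the NICD2 libraries, against 1.79, 2.21 and 1.45 FPKM in the wild type libraries. The groups overlapped and the channel was not called (log2 fold change -0.17, 95% interval -0.46 to 0.12, limma adjusted p = 0.447). The log2 ratio of Aqp7 to Aqp1 was higher in NICD2 by 0.22 without overlap (exact permutation p = 0.1), or by 0.14 with a pseudocount of 0.1. Aqp8, described in rat kidney inside proximal tubule and collecting duct cells, was near the limit of detection, at 0.17, 0.04 and 0.17 FPKM in the NICD2 libraries and 0.09, 0.04 and 0.13 FPKM in the wild type libraries. These values rest on 1 to 4 fragments, so no difference was detectable at this depth. Of the remaining aquaporin genes of the mouse, Aqp9 and Mip were listed below 0.3 FPKM in each library and Aqp12 held no value.

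Proximal tubule markers gave a weak background to these channels. Of 23 tested, 2 fell and none rose with limma, where 7 were lower and none higher at an unadjusted p under 0.05, beside 12.6% lower over all genes, and their median was -0.11. The sodium-phosphate transporters Slc34a1 and Slc34a3 were those that fell, Slc34a1 to 245 ± 33.7 FPKM in NICD2, against 378 ± 13.3 FPKM in wild type (limma adjusted p = 0.00579). The glucose transporter Slc5a2, at 14.05 ± 2.24 FPKM in NICD2 and 18.5 ± 0.383 FPKM in wild type, was not called (limma adjusted p = 0.0614). Only 1 marker was called without wild type replicate 2 or 3, and 4 were without NICD2 replicate 3. Relative to the mean of these markers Aqp1 was lower in NICD2 by 0.27 and Aqp11 by 0.29 on the log2 scale, without overlap (exact permutation p = 0.1 each, 0.143 adjusted). The same difference was -0.05 for Aqp7 and 0.17 for Aqp8, with overlap (exact permutation p = 0.8 and 0.2), and the sign for Aqp7 turned without wild type replicate 1.

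Aqp1 is also made in the thin limb, in the endothelium of descending vasa recta and in red blood cells, so markers of those cells were counted. Of 10 tested markers in the thin limb list, 4 fell and 2 rose, and 4 were lower and 4 higher at an unadjusted p under 0.05. By the same 2 rules 3.86% of all genes fell and 4.93% rose, and 12.6% were lower and 12.4% higher. Slc14a2 fell to 7.41 ± 0.478 FPKM in NICD2, against 30.1 ± 2.08 FPKM in wild type. It is also a transporter of the collecting duct, so the list is not of the thin limb alone. Akr1b3, aldose reductase, fell to 64.2 ± 4.32 FPKM in NICD2, against 142 ± 6.84 FPKM in wild type. The tetraspanin Tspan8 rose to 88.4 ± 17.7 FPKM in NICD2, against 36.4 ± 1.16 FPKM in wild type (limma adjusted p = 5.29e-04). Only 1 thin limb marker rose without wild type replicate 2 or 3, without NICD2 replicate 2 or 3, or with no filter. Against the mean of the thin limb list, Aqp1 overlapped between the groups, with a difference of -0.17 (exact permutation p = 0.3) that was -0.05 without NICD2 replicate 1 and -0.29 without NICD2 replicate 3. Of 14 endothelial markers 4 fell and none rose with limma, where 7 were lower and none higher at an unadjusted p under 0.05, beside 12.6% lower over all genes. Emcn fell to 68.4 ± 2.66 FPKM in NICD2, against 93.1 ± 4.98 FPKM in wild type, and kept its call throughout. In all 6 leave-one-out fits 1 or 2 endothelial markers were called, as was 1 with no filter, and Tek and Egfl7, the next in order of p, lost the call in 4 and 5 of them. The endothelial list summed to 529 to 562 FPKM in NICD2 and 605 to 692 FPKM in wild type. Of 6 erythroid markers none was called by limma, where 1, Slc4a1, was lower at an unadjusted p under 0.05, beside 12.6% lower over all genes. Slc4a1, which intercalated cells express too, stood at 3.06 ± 1.62 FPKM in NICD2 and 6.59 ± 0.652 FPKM in wild type (limma adjusted p = 0.0547). The erythroid list summed to 2283 to 3713 FPKM in NICD2 and 2581 to 6108 FPKM in wild type, and 1 member was called lower without NICD2 replicate 1 or 3. The part of these cells in the level of Aqp1 was not tested.

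Most genes that handle glycerol, which Aqp3 and Aqp7 carry, were not called, and those called moved both ways. Of 12 tested, 2 rose and 1 fell, with a median of -0.01, and 2 were higher and 4 lower at an unadjusted p under 0.05. Over all genes 4.93% rose and 3.86% fell, and 12.4% were higher and 12.6% lower at that unadjusted p. Agps, an enzyme of ether lipid synthesis, rose to 25.7 ± 3.28 FPKM in NICD2, against 12.9 ± 0.85 FPKM in wild type (limma adjusted p = 7.44e-04). Pgp, which dephosphorylates glycerol phosphate, rose to 21.7 ± 1.69 FPKM in NICD2, against 14.2 ± 1.87 FPKM in wild type (limma adjusted p = 0.00847). Mgll, monoglyceride lipase, fell to 17.5 ± 1.07 FPKM in NICD2, against 22.8 ± 1.6 FPKM in wild type, and was not called once NICD2 replicate 1 or either of wild type replicates 1 and 2 was left out (adjusted p up to 0.0886). Urothelium, the lining of the renal pelvis, also makes Aqp3. Of its 9 tested markers 3 fell and 2 rose, and 5 were lower and 3 higher at an unadjusted p under 0.05, beside the same shares over all genes. Psca fell to 0.187 ± 0.122 FPKM in NICD2, against 19 ± 8.2 FPKM in wild type, and Upk1b to 0.433 ± 0.344 FPKM in NICD2, against 10.9 ± 4.01 FPKM in wild type. The transcription factor Grhl3 rose to 6.46 ± 1.67 FPKM in NICD2, against 0.843 ± 0.121 FPKM in wild type (limma adjusted p = 1.46e-04). Grhl3 passed the filter through its NICD2 libraries alone, and Psca and Upk1b through their wild type libraries alone. The count of urothelial markers that rose was 1 with no filter, and also when wild type replicate 2 or 3 was left out. The list summed to 120.1 to 152 FPKM in NICD2 and 127 to 199 FPKM in wild type, and its part in the level of Aqp3 was not tested.

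The make-up of the channels changed with these falls. Their summed level was 152, 142 and 161 FPKM in the NICD2 libraries, against 311, 317 and 298 FPKM in the wild type libraries. Aqp1 took 37.2%, 44.5% and 46.3% of the sum in the NICD2 libraries, against 26.7%, 28.7% and 26.8% in the wild type libraries. Aqp2 took 33.9%, 26.4% and 25.1% in the NICD2 libraries, against 44.7%, 42.9% and 43.8% in the wild type libraries. Aqp1 was therefore the most abundant channel in all NICD2 kidneys and Aqp2 in all wild type kidneys. The share of Aqp3 was 19.9% on average in NICD2 and 18% in wild type. Down the order of levels in NICD2 came Aqp1, Aqp2, Aqp3, Aqp11, Aqp4, Aqp5, Aqp7, Aqp6 and Aqp8, where Aqp5 and Aqp7 overlapped. In wild type the order was Aqp2, Aqp1, Aqp3, Aqp6, Aqp11, Aqp4, Aqp7, Aqp5 and Aqp8, where Aqp11 and Aqp4 overlapped. The log2 ratio of Aqp2 to Aqp1 was lower in NICD2 by 1.25 with no overlap (exact permutation p = 0.1, 0.14 adjusted over the 7 ratios).

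**Figure D4:**
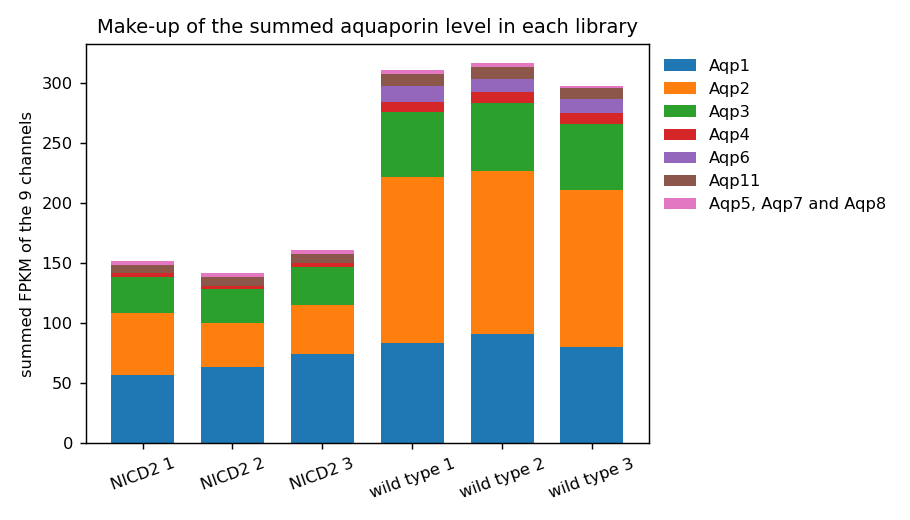
Summed FPKM of the 9 channels in each library, 3 NICD2 bars on the left and 3 wild type bars on the right, with each colour a channel. The bars reach 142 to 161 FPKM in NICD2 and 298 to 317 FPKM in wild type, and most of the gap is the Aqp2 segment.

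The genes sit in clusters on the chromosome. Aqp2, Aqp5 and Aqp6 lie head to tail within 26.4 kb of chromosome 15, with gaps of 6.48 kb between Aqp2 and Aqp5 and 5.86 kb between Aqp5 and Aqp6. The outer genes of this cluster fell and the middle gene did not. Within 100 kb on either side the table lists 4 more genes, of which 3 were tested. Limma called 1 of them, beside 8.79% of all genes, and 2 had an unadjusted p under 0.05, beside 25.1%. Racgap1, a regulator of cell division, rose to 30.1 FPKM in NICD2, against 22.8 FPKM in wild type (limma adjusted p = 0.0388). Its call was lost in 4 of 6 leave-one-out fits (adjusted p up to 0.129). Aqp7 and Aqp3 lie on chromosome 4, with 44.4 kb between them. None of the 7 other genes tested within 100 kb of that pair was called by limma, where 2 had an unadjusted p under 0.05, beside 25.1% of all genes, and 9 rows whose listed span exceeded 10 Mb were left out there. Aqp3 was the single gene of this window that fell.

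**Figure D5:**
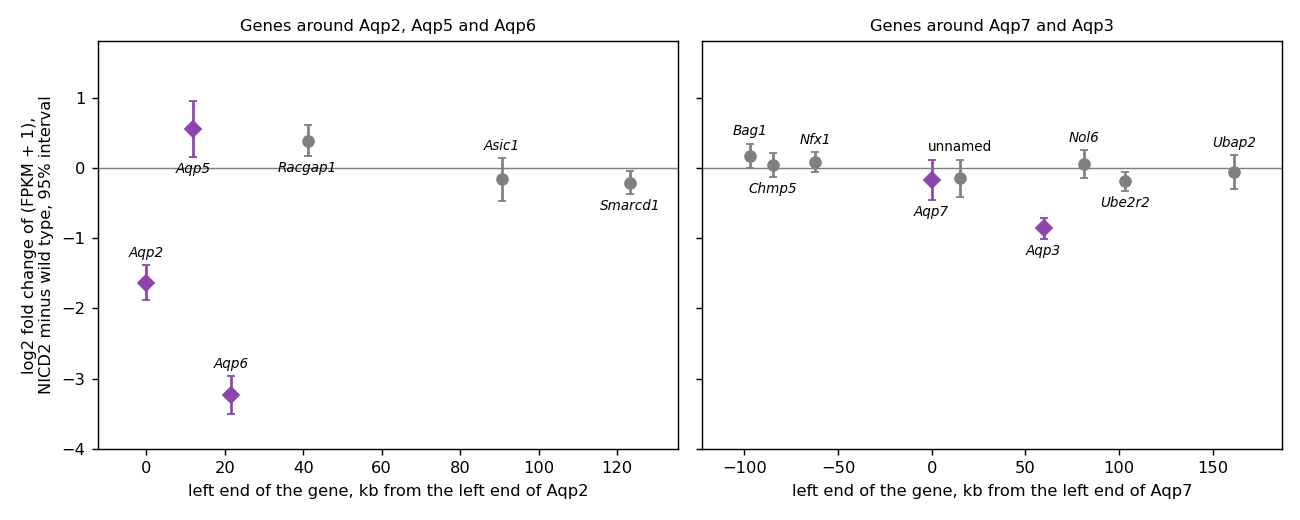
Log2 fold change of FPKM + 1 from limma, NICD2 minus wild type, with 95% intervals, of genes around Aqp2, Aqp5 and Aqp6 (left) and around Aqp7 and Aqp3 (right), against distance in kb. Purple diamonds are aquaporins and grey points other tested genes, and Aqp2, Aqp6 and Aqp3 stand below their neighbours.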

How the data were processed

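RNA was extracted with Trizol from flash-frozen kidneys, and TruSeq libraries were sequenced, per the labels' protocols. The table deposited by the authors has 23669 rows, of which 4010 held no value. Its FPKM, to 2 decimals, were computed by the authors, as were group means, per the file headers. Per the file headers it also gives a log2 fold change and a q-value that the authors obtained with DEGseq, and another value, the length of the longest transcript. Bowtie 0.12.2 and mm8 appear in the submitters' processing notes, but the table's chromosome accessions are those of GRCm38. The sources used here do not give how the FPKM were computed or how strand and shared reads were treated. A set of 27 columns that compare pairs of samples was not used.

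Groups came from the sample labels. Genes that reached 1 FPKM in 3 or more libraries were tested with limma 3.58.1 (R 4.3.3) on log2(FPKM + 1), with a mean-variance trend. Since the table holds no counts, the count tests listed as a possibility could not be run. The test was checked on simulated data. Ratios of channels and differences from marker lists were tested with two-sided exact permutation tests over samples. Depth was estimated from single-transcript genes as the library size, with 140 bases taken off each length, that brought most small values to within 0.15 of a whole fragment. It did so for 74.6% to 78.7% of values, where 30.0% would by chance. Such estimates cover counting error only. Genes that could be named were the channels, the 3 smallest p-values in each list, genes beside the channels, the 3 genes most like Aqp2 and Aqp6, and Notch2. The members and lists were chosen with earlier results of these data known. Alternatives were a pseudocount of 0.1, no filter, a filter of 2 FPKM, the replicate number as a block, median-ratio and upper-quartile scaling, and each library left out in turn, with the genes tested kept as over all 6 libraries. Python 3.11.15, pandas 2.3.3 and matplotlib 3.10.9 were used for tables and figures, and promoter sequences are from RefSeq on GRCm38. A member of the thin limb list is not reported here by name.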

Additional observations from a re-analysis of the deposited data

How the results depend on the processing

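Aqp2, Aqp3, Aqp4 and Aqp6 kept their direction and their calls under all 12 alternatives of the limma test, with log2 fold changes of -1.77 to -1.54, -0.90 to -0.81, -1.57 to -1.23 and -4.65 to -3.15. The count of channels that fell was 6, and it ranged from 4 to 6 in the fits without a library and was 5 or 6 under the others. The channels that lost a call were Aqp1 and Aqp11, as given above. No channel rose in the fits without a library (0 to 0), while 1 channel, Aqp5, was called higher with the replicate number as a block (limma adjusted p = 0.0375). Same-numbered samples did not deviate together, with correlations of -0.03, 0.06 and -0.05 over genes. These values gave no sign that the numbers pair the samples, but they cannot exclude it. Between differently numbered samples the correlations ran from -0.253 (NICD2 replicate 1 with wild type replicate 2) to 0.246 (NICD2 replicate 1 with wild type replicate 3). The cause was not tested. No sample correlated best with its own number. The replicate block gave 616 higher and 439 lower genes, and Aqp1 lost its call under it (adjusted p = 0.0701). Under it 1 endothelial marker was called lower, against 4 without it. Over all genes limma called 679 higher and 531 lower, and without a library these counts ranged from 388 to 589 higher and from 236 to 411 lower. The lowest counts came without wild type replicate 2 (388 higher, 236 lower), and those without NICD2 replicate 1 (436 higher, 293 lower) and without wild type replicate 3 (451 higher, 329 lower) were also under the count over all libraries by more than 1.5 times in sum. The distinct list genes called higher ranged from 9 to 13 without a library. Reversed signs were found for the log2 ratio of Aqp11 to Aqp1 without NICD2 replicate 3 (0.0386), for Aqp7 against proximal markers without wild type replicate 1 (0.0115), and for mouse Notch2, which was not called, without wild type replicate 1 (-0.0469, up to 0.0635 without replicate 2). The range of the ratio of Aqp11 to Aqp1 without a library was -0.0655 to 0.0386, and that of Aqp7 against proximal markers -0.144 to 0.0115. The cause of these shifts was not tested. Aqp8, Aqp5 and the NICD2 values of Aqp6 rest on the fewest fragments and are the least precise for that reason.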

Other observations

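The authors' deposited table compares the same groups with DEGseq and gave a q under 0.05 to 7 of the 9 channels, which were those called here and Aqp5. The same rule took in 48.9% of the 18725 genes it tested, so it separates the channels little from other genes. In the authors' deposited table the log2 fold change, NICD2 over wild type, was -4.89 for Aqp6, -1.65 for Aqp2, -1.60 for Aqp4, -0.88 for Aqp3, -0.46 for Aqp11, -0.39 for Aqp1 and 1.04 for Aqp5. In the authors' deposited table Aqp7 and Aqp8 had q = 0.119 and 0.295.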
